A study of Homo sapiens with 4 samples.

Results

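The HOX cluster genes were followed through single-cell RNA sequencing of CHP134, an established human neuroblastoma cell line that carries amplified MYCN. Members were all rows of the count table whose gene symbol was HOX, a cluster letter from A to D and digits, which gave 39 of 60651 genes: 11 in HOXA, 10 in HOXB, 9 in HOXC and 9 in HOXD. No measured value entered that rule. CHP134 cells were exposed for 24 h to the vehicle DMSO at 0.04%, to 13-cis retinoic acid (13cRA, isotretinoin) at 5 µM, to the α1-adrenoceptor blocker doxazosin at 10 µM, or to both drugs at these doses. All 4 groups are the same unmodified line, so the results describe 1 line, and each treatment was 1 sample. Cells were dispensed into the nanowells of a chip, wells with a single live cell were picked by imaging, and full-length cDNA libraries were sequenced.

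HOX proteins are transcription factors that bind DNA through a homeodomain, and in the embryo their combination gives a cell its position along the body axis. The genes lie in 4 clusters, in which order along the chromosome follows order of use: low-numbered paralogs act towards the head and high-numbered ones towards the tail. Retinoic acid binds nuclear receptors at response elements in and around the clusters and is a classic inducer of HOX genes, most readily of those at the low-numbered end. The neural crest cells that give rise to the sympathetic ganglia and the adrenal medulla, the origin of neuroblastoma, come from trunk levels where central HOX genes are used.

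After the cell filter 353 DMSO, 318 13cRA, 239 doxazosin and 287 combination cells remained. Their summed counts ranged from 22636509 in the 13cRA library to 72192743 in the combination, and the median counts per cell from 59200 to 221558 in the same libraries. Levels are CPM, the summed counts of a gene per 1000000 counts of its library, with exact 95% Poisson intervals. Differences between libraries are log2((CPM + 1)/(CPM + 1)), so low genes are understated. The intervals cover counting error only, since reads were amplified without molecular identifiers and each treatment has no replicate: no difference below has a test, and a size of at least 2-fold on this scale (a log2 difference of at least 1 or at most −1) is used as a description. HAND2, a transcription factor of noradrenergic neuroblastoma cells, was at 75.1, 85.7, 83.7 and 73.9 CPM in DMSO, 13cRA, doxazosin and combination, the order used for all values listed without names. ISL1, of the same marker list, was at 54.4, 11.9, 49.3 and 26 CPM and thus lower in both libraries with 13cRA. TH and DBH, the enzymes of catecholamine synthesis, lay at or under 0.177 CPM.

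All 39 HOX genes had at least 1 count, but 12 genes carried most of the counts. These 12 had a mean of at least 1 CPM over the 4 libraries, and they are the genes described one by one: HOXA7, HOXA11 and HOXA13; HOXC4, HOXC5, HOXC6, HOXC8 and HOXC9; HOXD3, HOXD8, HOXD9 and HOXD13. The lowest of them was HOXA13, with a mean of 1.09 CPM, and the highest gene left out was HOXC10, with 0.675. Summed over the 39 genes, HOX transcripts made up 62.4, 114, 55.9 and 88.3 CPM. By cluster, HOXC made up 27.5, 61.9, 22.6 and 51.4 CPM, HOXD 15.9, 34.2, 15.7 and 21.8, and HOXA 18.9, 17.5, 17 and 14. HOXC was the highest cluster in every library. HOXA lay above HOXD in DMSO and doxazosin and below it in both libraries with 13cRA.

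**Figure D1:**
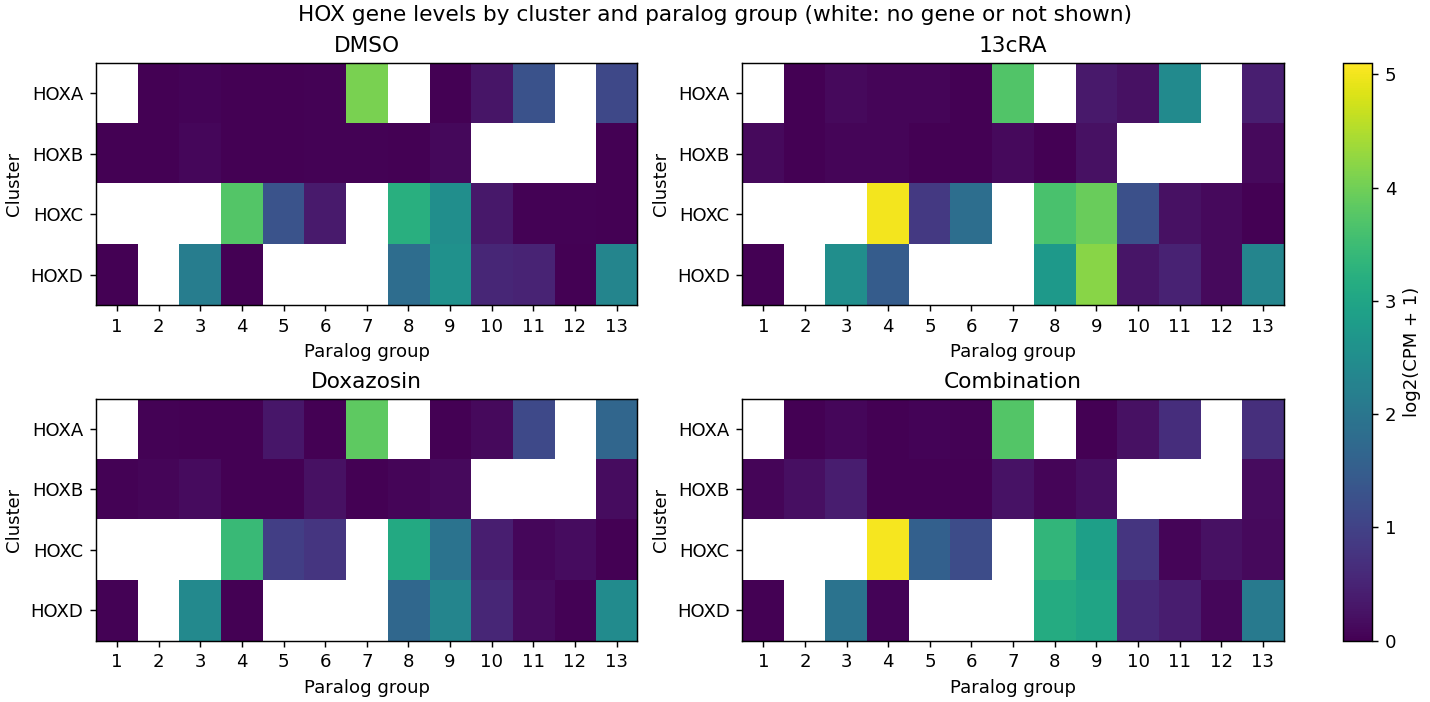
Level of each HOX gene in the 4 libraries as log2(CPM + 1) (colour), by cluster (rows) and paralog group (columns, 1 to 13); white marks positions with no gene or not shown. HOXB is dark throughout, and HOXC4 is brightest in the 2 libraries with 13cRA, at 31.3 and 31.6 CPM.

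The map of levels shows a patchy pattern along each cluster with measured and nearly silent genes next to each other. In DMSO the levels per kb of exon were highest for HOXA7 at 6.6 CPM per kb, HOXC4 at 4.54 and HOXC8 at 4.42. HOXC9 followed at 2.81, HOXD9 at 2.68 and HOXD13 at 1.8 CPM per kb. In 13cRA the order of the levels per kb differed, with HOXC4 at 11.5, HOXD9 at 9.21, HOXC9 at 8.47, HOXC8 at 6.01 and HOXA7 at 5.02 CPM per kb. No replicate spread is available to say which neighbours in these orders differ. The other 27 genes had at most 1.81 CPM in any library, 14 of them had at most 10 counts in all, and 14 of the 39 genes had no count in DMSO, where 3 counts, the floor used here for a count of 0, make 0.0623 CPM and the upper 95% Poisson bound of a count of 0 is 0.0766 CPM. Members with any count numbered 25, 31, 29 and 36 in DMSO, 13cRA, doxazosin and combination, with the combination also the deepest library.

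Against DMSO, 5 of the 12 measured genes were at least 2-fold higher in 13cRA on the log2(CPM + 1) scale, and 0 were 2-fold lower. Among all 13319 genes with a mean of at least 1 CPM, 8.66% were that much higher and 3.87% that much lower, and among the 8032 genes with a mean of 1 to 25 CPM, the range of the HOX genes, 12.7% and 4.83%. The 5 genes were HOXA11, HOXC4, HOXC6, HOXC9 and HOXD9. On the plain ratio of CPM, HOXD8 was also past 2-fold, at 2.28 (1.77 to 2.95). HOXA13 was past 2-fold in the other direction, at 0.304 (0.125 to 0.641), with 8 counts in 13cRA. Rank intervals of a median treat the 12 genes as independent, though they share libraries and clusters. They describe the spread among the genes and not that between samples. The median difference of the 12 was 0.67, with a 95% rank interval of −0.37 to 1.41, beside a median of 0.028 for all measured genes. This median moves with the scaling: with TMM factors it was 0.38, with the median of all genes at −0.27, so that the distance between HOX and all genes was 0.65 against 0.64 with CPM. With TMM factors HOXC4 (0.95) and HOXA11 (0.89) came under 2-fold, and 3 of the 12 stayed past it.

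**Figure D2:**
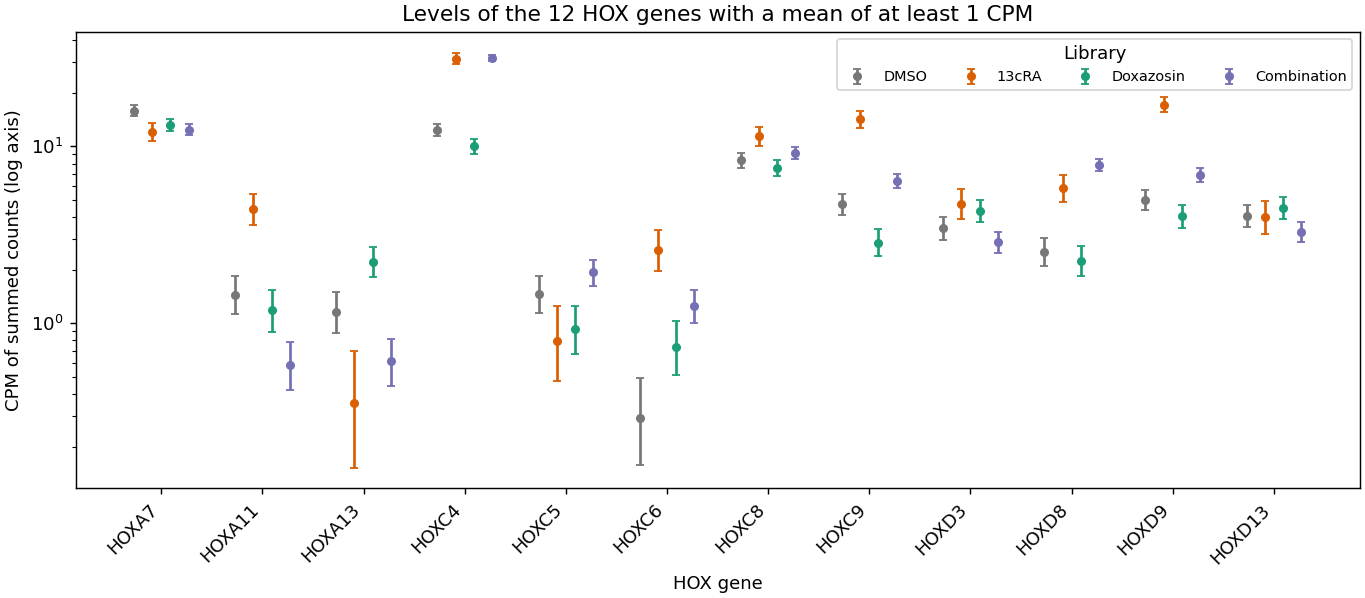
CPM of the 12 measured HOX genes (log axis) in the 4 libraries, with exact 95% Poisson intervals that cover counting error only. HOXC4 stands at 31.3 CPM in 13cRA and 31.6 in the combination against 12.4 in DMSO and 10 in doxazosin, whereas HOXD9 and HOXC9 are highest in 13cRA alone.

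The HOXC cluster on chromosome 12 (GRCh38, positions 53938765 to 54056030, GENCODE 29) held the highest HOX gene of the 13cRA libraries. HOXC4 (ENSG00000198353, positions 54016931 to 54056030) is the lowest-numbered gene of the cluster. Its level was 12.4 CPM with DMSO (11.4 to 13.4), 31.3 with 13cRA (29.1 to 33.7), 10 with doxazosin (9.11 to 11) and 31.6 with both drugs (30.3 to 32.9). It was high in both libraries that received 13cRA and low in both that did not, with no overlap of the intervals. Its log2 difference was 1.27 for 13cRA against DMSO and 1.57 for the combination against doxazosin, and 0.013 between the combination and 13cRA. HOXC4 made up 35.8% of all HOX counts in the combination. No single cell held more than 11.5% of its counts in any library. Of the HOXC4 exon bases 17.8% lie in gene models named HOXC5 or HOXC6 on the same strand, and how shared reads were counted is not stated.

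HOXC9 (ENSG00000180806, positions 53994895 to 54003337), a central gene of the cluster, was measured at 4.71 CPM with DMSO (4.12 to 5.37), 14.2 with 13cRA (12.7 to 15.9), 2.86 with doxazosin (2.39 to 3.39) and 6.36 with both drugs (5.79 to 6.97). It was thus highest in 13cRA alone: the log2 difference was 1.41 against DMSO, and the combination was lower than 13cRA by a log2 difference of −1.05. Against doxazosin the combination was higher by 0.93. The values of HOXC6 were 0.291 CPM with DMSO (0.159 to 0.488), 2.61 with 13cRA (1.98 to 3.36), 0.736 with doxazosin (0.51 to 1.03) and 1.26 with both (1.01 to 1.55). It was highest in 13cRA, at 59 counts from 17 cells, and 37.4% of its combination counts came from 1 cell.

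HOXC8, which patterns the trunk, was at 8.35, 11.4, 7.54 and 9.21 CPM in DMSO, 13cRA, doxazosin and combination. It differed by less than 2-fold in each comparison, by 0.40 for 13cRA against DMSO on the log2 scale. HOXC5 had 1.47, 0.795, 0.931 and 1.94 CPM in the same order. A second gene model that GENCODE 29 also names HOXC5 shares exon bases with HOXC4, HOXC5 and HOXC6. It held 16 counts (0.707 CPM) in 13cRA and 0 in the other libraries. Which gene those reads came from is not known, so the lower 13cRA level of HOXC5 itself is uncertain. HOXC10, just under the level limit, showed 0.249, 1.37, 0.347 and 0.734 CPM. In HOXC the genes at the posterior end, HOXC11, HOXC12 and HOXC13, did not exceed 0.18 CPM in any library.

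The HOXD cluster on chromosome 2 (positions 176092891 to 176190907) contributed HOXD9, which had the largest 13cRA difference on the log2(CPM + 1) scale. On the plain ratio of CPM HOXC6 was larger, at 8.97 (4.95 to 17.4) against 3.44 (2.92 to 4.06) for HOXD9, and without the cell filter it was larger on the log2 scale too, at 2.10 against 1.46. HOXD9 (ENSG00000128709, positions 176122720 to 176124937) was at 5 CPM with DMSO (4.39 to 5.68), 17.2 with 13cRA (15.6 to 19), 4.03 with doxazosin (3.47 to 4.65) and 6.9 with both drugs (6.31 to 7.53). The 13cRA library stood alone, above all the others. Its log2 difference was 1.60 for 13cRA against DMSO and −1.21 for the combination against 13cRA. HOXD8 (ENSG00000175879, positions 176129694 to 176132695) had 2.53 CPM with DMSO (2.1 to 3.02), 5.79 with 13cRA (4.84 to 6.87), 2.25 with doxazosin (1.84 to 2.73) and 7.84 with both (7.21 to 8.51). Like HOXC4 it was highest in the libraries with 13cRA, but 30% of its combination counts, 170 of 566, came from 1 cell. Without that cell the combination level was 5.49 CPM and the difference from doxazosin 1.15 in place of 1.44.

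HOXD3 and HOXD13 stayed under 2-fold in every comparison. HOXD13, the last gene of the cluster and a regulator of digits, was at 4.03, 3.98, 4.5 and 3.28 CPM in DMSO, 13cRA, doxazosin and combination, and its 13cRA difference was −0.015. HOXD3 was at 3.45, 4.73, 4.31 and 2.87 CPM. Single cells held 34.6% of the HOXD3 counts in 13cRA and 26.6% in doxazosin. Of its exon bases 74.1% lie in other annotated genes. AC009336.2, on the same strand, covers 62.2%, and the noncoding HAGLR overlaps on the opposite strand, so the level of HOXD3 is uncertain. HOXD4, the HOXD paralog of HOXC4, shows how a rare cell can carry a gene: it had 0 counts in DMSO and doxazosin and 41 in 13cRA, 40 of them in 1 cell. Of its exon bases 80.5% also lie in AC009336.2, so its level is uncertain too.

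In HOXA, on chromosome 7 (positions 27092993 to 27200106), HOXA7 was the highest HOX gene of DMSO. HOXA7 (ENSG00000122592, positions 27153716 to 27157936), a trunk gene, stood at 15.9 CPM with DMSO (14.8 to 17.1), 12.1 with 13cRA (10.7 to 13.6), 13.2 with doxazosin (12.2 to 14.3) and 12.4 with both (11.6 to 13.3). It was the only measured gene in HOXA above 5 CPM, and every library with a drug was lower than DMSO. The log2 difference was −0.37 for 13cRA and −0.33 for the combination. Of its exon bases 62.5% overlap HOXA-AS3 on the opposite strand, and the strandedness of the counting is not stated. HOXA-AS3 itself was at or under 0.221 CPM.

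The posterior genes of HOXA were low. HOXA11, a limb and kidney patterning gene, had 1.45 CPM with DMSO (1.13 to 1.84), 4.42 with 13cRA (3.59 to 5.37), 1.19 with doxazosin and 0.582 with both (0.419 to 0.786). Its log2 difference was 1.14 for 13cRA against DMSO but −0.47 for the combination against doxazosin. Its 100 counts in 13cRA came from 14 cells, and 31.1% of its exon bases overlap another gene on the opposite strand. HOXA13 had 1.16, 0.353, 2.23 and 0.609 CPM, from as few as 3 cells in 13cRA. HOXA2 to HOXA6 showed at most 0.238 CPM in any library.

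The HOXB cluster on chromosome 17 (positions 48528526 to 48729178) was nearly silent, with a summed level over 10 genes of 0.187, 0.53, 0.606 and 1.08 CPM in DMSO, 13cRA, doxazosin and combination. None of its genes reached a mean of 1 CPM. The highest level of any HOXB gene in any library was 0.332 CPM, that of HOXB3 in the combination.

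The HOX genes that were high with 13cRA included paralogs in different clusters, so the sequences that could be confused in counting were compared. The homeobox of HOXC9 and HOXD9, 180 bases and 60 codons, was read from GENCODE 29 transcripts on GRCh38 and is printed with the bases that differ between the pair in capitals. Of the 180 bases 83.3% were identical, and the longest run shared by the full transcripts was 23 bases. HOXC8 and HOXD8 shared 74.4% of the homeobox with a longest transcript run of 15 bases, and HOXC4 and HOXD4 75.6% with a run of 17.
HOXC9 homeobox: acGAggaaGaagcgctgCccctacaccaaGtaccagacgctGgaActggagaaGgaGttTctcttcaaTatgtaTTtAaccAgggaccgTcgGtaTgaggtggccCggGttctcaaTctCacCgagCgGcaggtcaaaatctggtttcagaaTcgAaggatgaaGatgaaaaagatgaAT
HOXD9 homeobox: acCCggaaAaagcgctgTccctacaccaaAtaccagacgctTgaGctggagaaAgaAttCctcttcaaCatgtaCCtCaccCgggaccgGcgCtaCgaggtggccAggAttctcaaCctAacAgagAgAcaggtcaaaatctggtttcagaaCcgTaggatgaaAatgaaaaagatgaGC

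Promoter bases were read from the RefSeq table on GRCh38.p14, which gave a window for 20 of the 39 genes (26 distinct windows of 250 bases upstream of a start site). The search looked, on both strands, for AGGTCA and AGTTCA, half-sites of retinoic acid response elements, for direct repeats of either with 5 bases between the copies and of AGGTCA with 2 bases between them, and for the E-box CACGTG, a MYC-type site. AGTTCA was in 4 of the 26 HOX windows, those of HOXA3, HOXC4, HOXD8 and HOXD13, against 8.8% of 35116 windows of all genes. AGGTCA was in 0 of 26 against 12.1%, and no direct repeat was found in a HOX window. CACGTG was in 8 of 26 against 6.34%. The search also held TGATNNAT (N is any base), in 3 of 26 against 6.47%, and TATAAA, in 5 of 26 against 10.7%. The HOX windows are distinct, while those of all genes were not reduced to distinct ones. A match is a description of letters, and a missing match says nothing about a factor.

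The stretch around each match is given 5′ to 3′ for the genes with values above, with the match in capitals as TGAACT, the reverse complement of AGTTCA. HOXC4 (chr12:54016838-54016867, plus strand) is limited to 30 bases because its window, shared with HOXC5, lies in an exon annotated for another transcript. HOXD8 (chr2:176129455-176129693, plus strand) and HOXD13 (chr2:176092471-176092720, plus strand) are shown to the first annotated exon base or the window's end.
HOXC4 site: catccatgaacgTGAACTttttattgtggt
HOXD8 promoter: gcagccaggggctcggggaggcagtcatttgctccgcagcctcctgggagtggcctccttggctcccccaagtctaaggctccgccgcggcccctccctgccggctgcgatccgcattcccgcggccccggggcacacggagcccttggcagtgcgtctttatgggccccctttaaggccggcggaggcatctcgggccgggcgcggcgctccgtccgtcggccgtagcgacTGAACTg
HOXD13 promoter: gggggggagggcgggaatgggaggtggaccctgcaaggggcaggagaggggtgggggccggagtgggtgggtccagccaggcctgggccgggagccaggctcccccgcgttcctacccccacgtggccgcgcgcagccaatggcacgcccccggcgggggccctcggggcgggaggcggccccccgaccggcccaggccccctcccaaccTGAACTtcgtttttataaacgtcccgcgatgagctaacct
Of these 3 genes with a match, HOXC4 and HOXD8 were higher with 13cRA, at 1.27 and 0.94 on the log2 scale, and HOXD13 was not, at −0.015. HOXC5, which shares the HOXC4 window and so its match, was lower, at −0.46.

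In doxazosin against DMSO, 0 of the 12 were past 2-fold on the log2(CPM + 1) scale in either direction, beside 1.38% higher and 1.23% lower among all measured genes and 2.19% and 2.02% among those of 1 to 25 CPM, shares at which a count of 0 is no result about HOX genes. Low genes are understated on that scale: the plain ratio of CPM was 2.53 for HOXC6 (1.32 to 5.11) and 1.92 for HOXA13 (1.37 to 2.71). In doxazosin, however, 1 cell held 50% of the HOXC6 counts and 1 cell 29.1% of the HOXA13 counts. Without the highest cell of each library, HOXC6 was at 0.368 CPM in doxazosin and 0.228 in DMSO, and HOXA13 at 1.58 and 0.83. The 12 differences ran from −0.57 for HOXC9 to 0.58 for HOXA13, with a median of −0.15 (rank interval −0.28 to 0.26).

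With both drugs, 2 of the 12 genes, HOXC4 and HOXD8, were at least 2-fold higher than in DMSO on the log2(CPM + 1) scale, and 0 were lower. Among all measured genes 3.88% were higher and 2.34% lower, and among those of 1 to 25 CPM 5.58% and 3.55%. On the plain ratio of CPM, HOXC6 was at 4.34 (2.46 to 8.25) and HOXA11 at 0.4 (0.266 to 0.595). In the combination, 1 cell held 37.4% of the HOXC6 counts and 1 cell 35.7% of the HOXA11 counts. The HOXD8 difference of 1.32 depended on the cells used: it was 0.91 in thinned cells, 0.99 as the mean of per-cell CPM and −0.31, the opposite direction, among cells of 34000 to 120000 counts, of which the combination had 38. The median difference was 0.19. Against doxazosin the combination had the same 2 genes higher, with HOXD8 at −0.26 in that range of depth, and HOXA13 lower, beside 4.19% and 2.58% of all genes and 6.13% and 3.93% of those of 1 to 25 CPM. The median was 0.32. Plain ratios to doxazosin were 2.22 for HOXC9 (1.83 to 2.72), 2.08 for HOXC5 (1.47 to 3) and 0.488 for HOXA11 (0.319 to 0.743). These genes were under 2-fold on the log2(CPM + 1) scale. Against 13cRA alone, 0 were higher and HOXA11, HOXC9 and HOXD9 were lower, beside 3.4% and 6.76% of all genes and 4.32% and 10.2% of those of 1 to 25 CPM. The median was −0.25 with CPM but 0.021 with TMM factors, under which all genes had a median of 0.23, and of the 3 lower genes HOXA11 alone stayed past 2-fold. On the plain ratio to 13cRA, HOXC6 was at 0.484 (0.345 to 0.683). HOXC5, whose 13cRA level is uncertain, was at 2.44 (1.49 to 4.24).

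**Figure D3:**
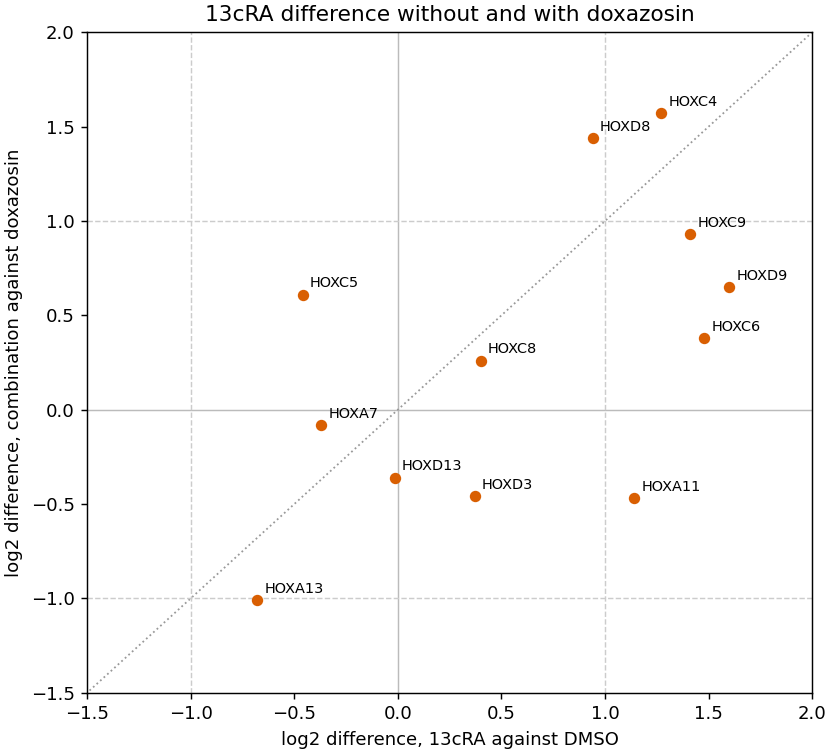
Log2 difference of 13cRA against DMSO (horizontal) and of the combination against doxazosin (vertical) for the 12 measured genes; dashed lines mark 2-fold and the dotted line equal differences. HOXC5 (−0.46 and 0.61), HOXD8 (0.94 and 1.44), HOXC4 (1.27 and 1.57) and HOXA7 (−0.37 and −0.081) lie above the dotted line. HOXA11, HOXC6 and HOXD9 lie well below it.

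The 2 differences that 13cRA makes, without and with doxazosin, use different libraries and can be set side by side. HOXC4, HOXC6, HOXC8, HOXC9, HOXD8 and HOXD9 were higher with 13cRA in both settings, except that among cells of 34000 to 120000 counts HOXC6 (−0.70) and HOXD8 (−0.26) were lower in the combination than in doxazosin. HOXC9 had 1.41 without and 0.93 with doxazosin, HOXD9 1.60 and 0.65, and HOXC6 1.48 and 0.38. Each of these 3 had a smaller value in the presence of doxazosin, whereas HOXC4 and HOXD8 had a larger one. With 1 sample per treatment, these departures have no test.

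Counts per cell were compared after thinning each cell to 34000 counts, which left 328 DMSO, 249 13cRA, 235 doxazosin and 270 combination cells. HOXC4 was seen in 24.4% of DMSO cells (Clopper-Pearson 95% interval 19.8 to 29.4), 38.6% of 13cRA cells (32.5 to 44.9), 20.9% of doxazosin cells (15.8 to 26.6) and 53% of combination cells (46.8 to 59). The share was higher in both 13cRA libraries, and the combination share lay above that of 13cRA, while the CPM of the summed counts was 31.6 and 31.3. Unthinned, the HOXC4 shares were 43.3%, 45.9%, 43.1% and 75.3%. HOXD9 was seen in 7.62%, 22.1%, 7.66% and 13.3% of thinned cells, and HOXC9 in 8.54%, 19.3%, 4.68% and 12.2%. Both were most frequent in 13cRA alone; unthinned, the shares were 18.1%, 25.5%, 20.1% and 31.7% for HOXD9 and 19.3%, 22.6%, 14.6% and 25.8% for HOXC9, with the deepest library, the combination, highest. HOXD8 was seen in 7.32%, 10%, 5.53% and 14.1%, also in the order of its CPM. HOXA7 was seen in 28.4%, 18.9%, 26.4% and 28.1% and was thus least frequent with 13cRA alone. For HOXC8 the shares of 19.2%, 17.7%, 16.6% and 17.4% lay within each other's intervals, and HOXD13 was seen in 7.93%, 4.82%, 7.66% and 4.07%. The average of per-cell CPM, which weights each cell equally, gave HOXD9 4.19, 19.1, 3.22 and 8.28 CPM, with the same library highest.

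**Figure D4:**
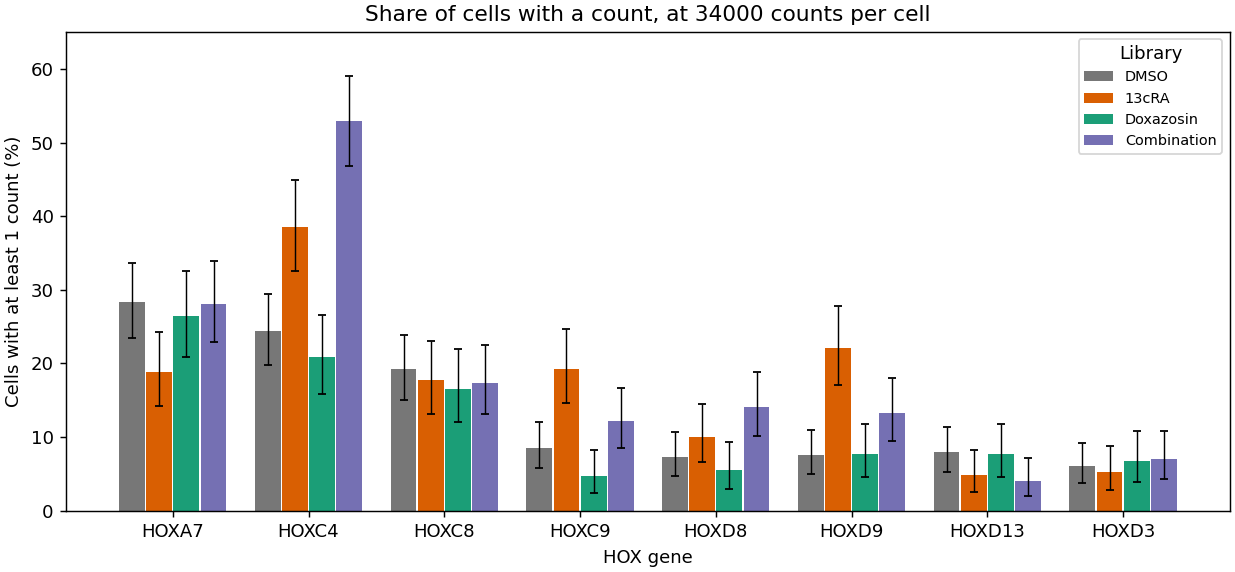
Share of cells with at least 1 count of 8 HOX genes (bars) after thinning to 34000 counts per cell, with Clopper-Pearson 95% intervals for the sampling of cells. HOXC4 is highest in the combination at 53%, and HOXC9 and HOXD9 are highest in 13cRA at 19.3% and 22.1%.

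Cells with a count of any HOX gene made up 75.6% of DMSO (70.6 to 80.2), 79.5% of 13cRA (74 to 84.4), 71.1% of doxazosin (64.8 to 76.8) and 83.7% of combination cells (78.7 to 87.9); unthinned, the shares were 89.8%, 82.7%, 90% and 94.1%. A larger gap lay in cells with 2 or more HOX genes: 34.8%, 52.6%, 31.5% and 53.7%. The mean number of HOX genes seen per cell was 1.24, 1.59, 1.13 and 1.65, and no cell held more than 6. HOXC4 and HOXC8, both genes of HOXC, were seen together in 20, 22, 12 and 28 thinned cells, where the product of their shares gives 15.4, 17, 8.13 and 24.9. Other pairs in HOXC did not all lie above the product. HOXC4 and HOXC9 were seen together in 4, 17, 2 and 20 cells against 6.83, 18.5, 2.29 and 17.5. For HOXC8 and HOXC9 the values were 4, 8, 3 and 8 against 5.38, 8.48, 1.83 and 5.74. HOXC9 and HOXD9, paralogs on different chromosomes, were seen together in 1, 10, 0 and 8 cells, where the product gives 2.13, 10.6, 0.843 and 4.4. These counts share cell depth and are given as a description.

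The 13cRA differences were also looked at beside other genes and depth. RARB, a receptor gene that retinoic acid induces directly, had 1.27, 23.6, 3.27 and 27.6 CPM. In 13cRA, HOXC4 was seen in 50% of thinned cells with a RARB count (34.6 to 65.4) and 36.1% without (29.5 to 43.1), and in the combination in 61.7% and 50.5%. The HOXC4 intervals overlap in both libraries. HOXC8 was seen in 36.4% of 13cRA cells with a RARB count (22.4 to 52.2) and 13.7% without (9.27 to 19.1), and in 20% and 16.7% of combination cells. Cells with and without a count of ENPP2, which encodes autotaxin, had HOXC4 in 41.9% and 31.7% of 13cRA cells and in 57.7% and 40.8% of combination cells. HOXD9 was also more frequent with either marker in both libraries. Other pairs went the other way. In 13cRA, HOXA7 was seen in 13.6% of cells with RARB and 20% without, and HOXD8 in 6.82% and 10.7%. HOXC9 was seen in 17.4% of 13cRA cells with ENPP2 and 23.2% without. HOXC8 with RARB in 13cRA was the only pair looked at whose intervals lay apart.

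Only cells with 34000 to 120000 counts were then compared, a range chosen after the data were seen, which kept 141, 203, 58 and 38 cells. In that range the differences between 13cRA and DMSO were 1.15 for HOXC4, 1.51 for HOXC9, 2.36 for HOXD9, 1.19 for HOXA11 and 0.89 for HOXC6. All but HOXC6 were past 2-fold there. Depth still differed within the range, with 12104280 counts over the 141 DMSO cells and 13611088 over the 203 13cRA cells. Median mitochondrial shares were 13.2% in 13cRA and 10.1% to 10.6% in the other libraries, and their part in the HOX differences was not tested. Of Schwann cell markers, ERBB3 was at 0.166, 6.54, 0.238 and 1.3 CPM, while SOX10 and S100B were at most at 0.152 CPM. Summed fibroblast markers lay between 4.49 and 9.9 CPM, highest with doxazosin, and leukocyte, endothelial and epithelial markers at most at 1.13, 2.39 and 1.81 CPM. The part of these markers in the HOX differences was not tested.

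Regulators of HOX genes were read from lists of related genes. Of 12 Polycomb genes, which keep HOX clusters silent, 11 were measured and 1 was at least 2-fold higher in 13cRA than in DMSO, JARID2, beside 8.66% of all measured genes, with 83.1, 177, 73.8 and 101 CPM. EZH2, the Polycomb methyltransferase, was at 94, 77.7, 80.8 and 52.5 CPM. Of 8 trithorax and activating genes, all measured, 2 were higher, beside the same 8.66% and beside 12.7% of genes of 1 to 25 CPM: KDM6B, an H3K27 demethylase, with 3.49, 10.7, 3.08 and 4.35 CPM, and DOT1L with a log2 difference of 1.17. Neither of these lists had a member 2-fold lower in 13cRA.

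Of the 9 retinoid receptors and early targets, 7 were measured. In 13cRA against DMSO 4 were at least 2-fold higher and 0 were 2-fold lower. Among all measured genes 8.66% were that much higher, and among those of 1 to 25 CPM 12.7%. The 4 were RARB, DHRS3, CRABP2 and RARA, at 3.44, 1.63, 1.23 and 1.03 on the log2 scale. No count of CYP26A1, which encodes an enzyme that degrades retinoic acid, was seen in any library. Of 18 noncoding RNAs of the HOX clusters, 1 was measured: HAGLR, antisense in HOXD, at 4.42, 3.09, 2.56 and 5.4 CPM. Of 11 genes flanking the clusters, 6 were measured and 0 were past 2-fold in 13cRA against DMSO, beside 8.66% higher and 3.87% lower among all measured genes; the largest difference was 0.70 for SMUG1, next to HOXC. The 6 ParaHox and CDX genes, HOX relatives outside the clusters, all lay under the limit of a mean of 1 CPM.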

How the data were processed

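The table deposited by the authors holds raw, whole-number read counts of 60651 genes in 1287 cells. Tools named in the submitters' processing notes are STAR 2.7.8a, fastp 0.23.3, bcl2fastq, Seurat 4.3.0 and featureCounts; GRCh37 and GRCh38.p13 are both listed, without roles. The sources used here do not state the annotation release, the strandedness or how reads shared between genes were counted. Cells with at least 500 genes and at most 25% mitochondrial counts were kept (1197 of 1287). No doublet caller was run, since wells were chosen by imaging, per the labels. Counts were summed per treatment and scaled to CPM (Python 3.11.15, pandas 2.3.3, scipy 1.17.1); edgeR 4.0.16 and DESeq2 1.42.0 gave scaling factors only. With 1 sample per treatment no p-value was computed. Symbols came from a gene name table (60481 of 60651 IDs matched) and positions from GENCODE 29; 4 of 39 HOX IDs carry the same version there. Members with a mean of at least 1 CPM were named with every value, the others by range; of each related list, up to 4 members with the largest 13cRA difference. Some genes of these lists, and 1 HOX gene, are not reported here. Members and lists were chosen with earlier results of these data known. The calculation was tested on simulated data. The alternatives tried were other scalings, pseudocounts, level limits, cell filters and depths, and leaving out the highest cell of each gene.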

Additional observations from a re-analysis of the deposited data

Results flagged for a closer look

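For 3 genes 13cRA went with a higher level in one setting and a lower one in the other, with counting intervals of both ratios clear of 1; the difference between settings was not tested, since each treatment has 1 sample. HOXA11 departed by −1.61 on the log2 scale, from 1.14 without doxazosin to −0.47 with it. HOXC5 departed by 1.07, from −0.46 to 0.61. A second gene model named HOXC5, which also shares exon bases with HOXC4 and HOXC6, held 0.707 CPM in 13cRA and 0 elsewhere. Whether those reads belong to HOXC5 is not known. If all of them did, then with the 0.795 CPM of HOXC5 itself 13cRA would not lie below the 1.47 of DMSO. The sign of the HOXC5 difference without doxazosin is thus uncertain. HOXD3 departed by −0.82, from 0.37 to −0.46. Without the cell with the most counts of the gene, HOXA11 kept 1.03 and −0.46 and HOXC5 kept −0.31 and 0.83, while HOXD3 came to −0.022 and −0.19.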

How the results depend on the processing

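Of the 13 member differences past 2-fold, 130 alternative values were computed, of which 101 were still past 2-fold and 27 kept their direction under it. The other 2 reversed: with only cells of 34000 to 120000 counts, a range chosen after the data were seen that leaves 38 combination cells, HOXD8 was at −0.31 for the combination against DMSO and −0.26 against doxazosin. Of 470 values of differences under 2-fold, 15 came past it. The number of genes higher in 13cRA than DMSO, 5 as reported, was 3 with TMM factors, 3 with DESeq2 size factors, 2 with a pseudocount of 5 CPM and 3 with a mean of at least 3 CPM, where 8 genes are left. The 3 genes lower in the combination than in 13cRA became 1 with TMM factors, 1 with DESeq2 size factors and 0 with a pseudocount of 5 CPM. With the mean of per-cell CPM, the median of doxazosin against DMSO was −0.32, and the combination had 1 gene higher than DMSO, 4 higher than doxazosin and 0 lower. A pseudocount of 0.25 CPM gave 1 gene lower in 13cRA than DMSO (HOXA13), 1 lower in the combination than DMSO (HOXA11) and 1 higher in the combination than 13cRA (HOXC5). A pseudocount of 5 CPM gave 1 gene higher in the combination than DMSO, 1 higher than doxazosin and 0 lower than doxazosin. The 1 gene lower in the combination than doxazosin, HOXA13, also became 0 with a mean of at least 3 CPM, with thinned cells, without the highest cell and in the depth range. Thinned cells gave 1 gene higher in the combination than DMSO, and the depth range 1 lower in doxazosin than DMSO with a median of −0.30. The cause was not tested. Shares of cells with any HOX count depend on depth and on which cells are kept: unthinned, with shallow cells included, they were 89.8% (DMSO), 82.7% (13cRA), 90% (doxazosin) and 94.1% (combination), and at 60000 counts 86.3%, 90.3%, 83.6% and 91.7% in DMSO, 13cRA, doxazosin and combination. No paired analysis was possible because the results come from no test, with 1 sample per treatment.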
